A study of Mus musculus with 11 samples.

Results

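The subject is the response of aging mouse aortic valves to wire injury, measured by RNA sequencing in 5 of the 11 libraries of the series, namely the 2 libraries labelled as aging and injured and the 3 labelled as aging and sham. All mice were wild type, and each library came from the aortic valve of 1 mouse killed 48 hours after surgery. In the injured group a wire was passed in vivo to damage the endothelium that covers the valve, and the sham group had sham surgery; aging mice were 16 to 18 months old. The other 6 libraries came from mice of 3 to 4 months, 3 injured and 3 sham, operated in the same manner and not shared with the aging comparison. Both injured libraries held counts for fewer genes than the shams, so the counts and medians of the aging comparison are over adequately counted genes, meaning genes with at least 10 counts in each of the 5 aging libraries. The few genes named below that miss this rule are given as counts and said to miss it. That rule kept 15007 of the 19366 genes that could be tested, and 13519 of the 15007 are protein coding.

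The aortic valve is a thin leaflet of matrix with an endothelial cover on each face and interstitial cells, which are fibroblast-like, between them. Removal of endothelium from a vessel or valve exposes the matrix, and the textbook sequence that follows is coagulation, entry of leukocytes, proliferation of resident cells and deposition of new matrix. Cells that divide first switch on genes for DNA synthesis and then genes for the spindle and for cell separation. The late genes are commonly controlled through promoter elements named CHR and CCAAT, and interferon-responsive genes through an element that repeats GAAA.

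Promoters of the late cell cycle genes are shown because, as a list, these genes had the highest median difference of 34 lists in the aging valves. That rank is by list median in the main fit, and no single gene passed the thresholds given below. RefSeq windows (GRCm38.p6) of 250 bases before to 50 after each start were searched on both strands, and 37 of the 45 genes on a list of mitosis genes had a window. The letters TTTGAA or TTCGAA, the CHR core, were in 32 of 39 windows of these genes (82.1%), against 19.2% of all 32851 windows of the same length. CCAAT was in 79.5% of the mitosis windows and in 37.4% of all windows, and both elements were in 74.4% and 7.5%. Among 30 windows of S phase genes, which act earlier, 16.7% held the CHR core and 70.0% held CCAAT. The interferon-stimulated response element, a pair of GAAA blocks, was in 17 of 35 windows (48.6%) of interferon-stimulated genes and in 3.4% of all windows. The 250 bases before the start are printed 5′ to 3′ on the gene's strand, with CHR and CCAAT letters of either strand in capitals. They belong to Prc1 (chr7:80294226-80294475, plus strand, the downstream of its annotated starts), Ube2c (chr2:164769679-164769928, plus strand) and Mki67 (chr7:135716380-135716629, minus strand), 3 of the mitosis genes with the smallest p in aging valves.
Prc1: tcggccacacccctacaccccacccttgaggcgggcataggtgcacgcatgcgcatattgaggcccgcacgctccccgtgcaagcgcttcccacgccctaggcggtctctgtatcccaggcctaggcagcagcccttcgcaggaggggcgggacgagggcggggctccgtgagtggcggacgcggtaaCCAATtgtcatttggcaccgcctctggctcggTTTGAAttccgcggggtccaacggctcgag
Ube2c: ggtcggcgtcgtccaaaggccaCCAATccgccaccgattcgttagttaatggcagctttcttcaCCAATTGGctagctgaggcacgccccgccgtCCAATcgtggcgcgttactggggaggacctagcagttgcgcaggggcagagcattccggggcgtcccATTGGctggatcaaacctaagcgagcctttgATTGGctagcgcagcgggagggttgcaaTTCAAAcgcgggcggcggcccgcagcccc
Mki67: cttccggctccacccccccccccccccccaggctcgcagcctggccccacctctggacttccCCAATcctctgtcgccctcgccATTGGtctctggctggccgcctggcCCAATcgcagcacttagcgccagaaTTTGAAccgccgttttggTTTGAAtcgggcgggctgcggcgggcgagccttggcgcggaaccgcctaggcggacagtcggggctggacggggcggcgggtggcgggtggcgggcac
Prc1 held 1 CHR core and 1 CCAAT, Ube2c held 1 CHR core and 6 CCAAT, and Mki67 held 2 CHR cores and 3 CCAAT. A match of letters is a description of the window and not a measured binding site.

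Several properties of the libraries stood apart along with the injured label, and they touch every result that follows. Totals were 36353474, 30834546 and 27124000 counts in the shams and 28052207 and 34715421 in the injured libraries. Even so, genes with any count numbered 22337 to 22533 in the shams and 18642 and 19015 in the injured libraries, and genes with only 1 to 9 counts numbered 4737 to 5116 in the shams and 2073 and 1914 in the injured. Young sham 1 had the same profile, with 18641 genes counted and 2077 at 1 to 9 counts, whereas the other 8 libraries of the series had 20411 to 22533 and 3330 to 5116. The sample descriptions carry running numbers, whose meaning the labels do not give, and the 3 highest belong to the injured aging libraries and young sham 1. Within the aging valves, injury and this number series cannot be told apart; the size of a difference is therefore also given, where it matters, between young sham 1 and the other 2 young shams, and from a fit with a term for these 3 libraries. The term can be estimated only from young sham 1 against the other 2 young shams, so both values rest on that 1 library and are not separate checks. By counts of Xist and of the Y-linked gene Ddx3y, aging sham 1 came from a male and the other 4 aging libraries from females. General markers of mesenchymal and endothelial cells, which are not particular to the valve, were present in each library. Vim, the intermediate filament of mesenchymal cells, was at 4877, 4980 and 5392 CPM in the shams and 5175 and 5746 in the injured. The endothelial cadherin Cdh5 was at 72.7, 69.4 and 92.8 against 113 and 122. Myh6, the cardiac muscle myosin, stood at 7331, 3018 and 3239 CPM in the shams and 5401 and 4969 in the injured, so heart muscle RNA was present throughout. CPM is the count scaled for library size with edgeR's TMM factors, so it compares libraries within a gene and not genes of different length.

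**Figure D1:**
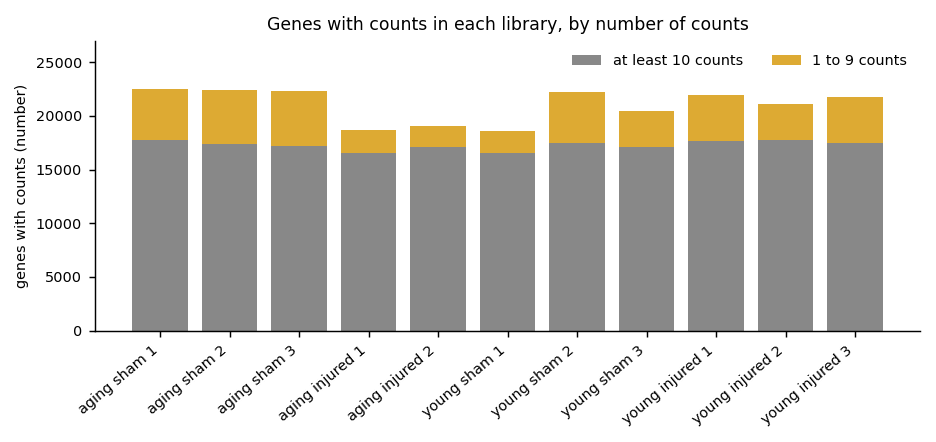
Number of genes with counts in each of the 11 libraries, split into genes with at least 10 counts (grey) and with 1 to 9 counts (yellow). Aging injured 1 and 2 and young sham 1 have 1914 to 2077 genes at 1 to 9 counts, and the other 8 libraries have 3330 to 5116.

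No gene passed the series' thresholds, an adjusted p under 0.1 with a fold change over 2, between injured and sham aging valves in edgeR's quasi-likelihood test (0% of 19366 tested). At an unadjusted p under 0.05, 978 of the adequately counted genes were separated (6.52%), of which 472 stood higher after injury (3.15%) and 506 lower (3.37%). Over these genes the values of the injured libraries lay wholly above the shams in 1897 (12.6%) and wholly below in 1981 (13.2%). DESeq2 called 109 adequately counted genes at the same thresholds, 59 higher (0.393%) and 50 lower (0.333%), limma voom called 0, and edgeR without aging injured 1 called 154, 43 higher and 111 lower. The 978 became 2613 without aging injured 1, 650 without aging sham 1 and 639 without aging sham 2. Without aging injured 1, aging injured 2 stood alone for its group and was assumed to vary like the other groups. The 2 injured libraries differed from each other more than the shams did: in the 3002 genes with the highest mean CPM their median absolute log2 difference was 0.271 against 0.096 to 0.137 between pairs of shams, and in the 3002 with the lowest 0.713 against 0.349 to 0.392. The words higher and lower are used below for genes that did not pass the threshold, each with its values. The lists of genes were drawn up with earlier results of these data known, so their counts are descriptions, read against the background shares just given.

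Genes of mitosis had the highest median of the 34 lists in the fit without the term. All 45 were tested and 38 were adequately counted; of these 38, 37 had a positive log2 difference (51.5% of all adequately counted genes did), 25 had an unadjusted p under 0.05, all of them higher, and in 33 both injured libraries lay above the 3 shams. The median log2 difference of the list was 1.74, against 0.01 over all adequately counted genes. Ccna2 (chr3:36564865-36572150 in mm10, minus strand) encodes cyclin A2, which drives S phase and entry into mitosis. It was at 1.30, 2.41 and 3.11 CPM in the shams and at 8.88 and 13.4 in the injured valves. Its log2 fold change was 2.30 ± 0.38 (SE), with an adjusted p of 0.258, and the groups did not overlap. Kif20a, a kinesin of the central spindle, was at 1.38, 2.25 and 2.97 CPM in the shams and 7.92 and 13.5 after injury, and Prc1, which bundles the microtubules on which it moves, at 1.33, 1.76 and 3.25 against 8.49 and 13.6. Their log2 fold changes were 2.29 ± 0.42 and 2.39 ± 0.47, both with an adjusted p of 0.258.

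Ube2c, the ubiquitin-conjugating enzyme of the anaphase-promoting complex, was counted at 0.911, 1.02 and 1.98 CPM in the shams and at 7.32 and 5.26 in the injured valves. Mki67, which encodes the proliferation antigen Ki-67, was at 3.73, 6.26 and 8.56 CPM against 27.8 and 21.1, and Top2a, the topoisomerase that untangles sister chromatids, at 3.81, 4.97 and 7.29 against 19.1 and 15.1. Log2 fold changes of the 3 genes were 2.27, 1.99 and 1.68, each with an adjusted p of 0.259. In each of them both injured libraries were above the highest sham. Aging sham 3 was the highest sham in all 6 of these genes and aging sham 1 the lowest, so the shams also had a spread of their own. Further members of the same kind were Hmmr at a log2 difference of 2.88, Cdca3 at 2.83, Nusap1 at 2.43 and Ccnb2, cyclin B2, at 2.40, all with lower counts. Anln, anillin, had the highest level on the list and stood at 52.6, 63.5 and 53.01 CPM in the shams and 76.5 and 55.2 in the injured valves, which overlap. Smc4, a condensin subunit, was the member with a negative difference, at -0.22.

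The mitosis genes also differed within the shams along the number series. Young sham 1 exceeded the other young shams by a median of 0.91 on the log2 scale over the 38 genes, and with a term for the 3 libraries of that series the aging median was 0.78. With the term the list no longer ranked highest: lymphocyte markers (4.06, 7 genes), adipocyte markers (1.37), cytokines and chemokines (1.19) and neutrophil markers (0.90, 5 genes) had higher medians. Young sham 1, on which the term rests, was at 0 counts in 15 of the 24 lymphocyte markers. Without the term the lymphocyte median was 0.55. For Mki67 the offset of young sham 1 was 1.12 and the value with the term 0.90, whereas Ccna2 had 0.19 and 2.14, and Kif20a -0.29 and 2.64. The list median ranged from 1.44 without aging sham 1 to 2.01 without aging sham 3, and was 1.44 over libraries from females only. In bulk tissue more dividing cells and more RNA per cell cannot be told apart, and this holds for every list below.

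Genes of S phase, which copy DNA before division, stood higher to a smaller extent. All 31 were adequately counted, 27 had a positive difference, 9 had an unadjusted p under 0.05 in the higher direction and 0 in the lower, and the median log2 difference was 0.62. Uhrf1, which guides the copying of DNA methylation, was at 3.45, 3.89 and 5.24 CPM in the shams and at 11.4 and 12.7 in the injured valves (log2 fold change 1.53 ± 0.35, adjusted p = 0.321). Tk1, thymidine kinase, was at 1.16, 0.709 and 1.63 CPM against 2.70 and 5.64, and Chaf1a, of the chromatin assembly factor, at 3.73, 3.61 and 4.11 against 7.92 and 8.59. The helicase subunits Mcm3, Mcm4, Mcm5 and Mcm10 were among the 9, with log2 differences of 0.62, 0.55, 0.82 and 1.12, and the ribonucleotide reductase subunit Rrm2 was at 1.18. Mcm6, the member with the highest level, was at 47.1, 57.7 and 57.3 CPM against 70.6 and 57.9. The offset of young sham 1 was 0.19 over this list, and the median with the term was 0.43.

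**Figure D2:**
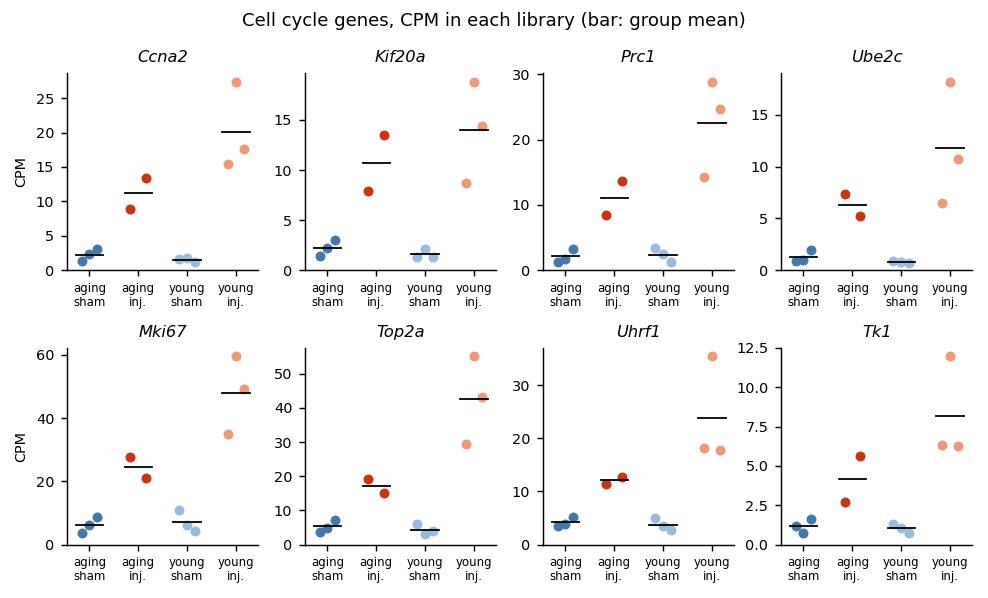
CPM of 8 cell cycle genes in each library (points), with the group mean (bar), for aging sham (3), aging injured (2), young sham (3) and young injured (3). For Ccna2 the aging injured libraries are at 8.88 and 13.4 and the aging shams between 1.30 and 3.11.

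The genes called between injured and sham young valves were followed into the aging libraries. The young contrast compares young libraries, but all 11 libraries shared the filter and the estimate of spread, so the aging libraries also bear on which genes were called. By Xist and Ddx3y counts, young sham 1, young sham 2 and young injured 2 came from males and the other young libraries from females. Sex was therefore not balanced between the young groups, and it was not in the fit. In young valves 78 genes rose (0.403% of those tested) and 3 fell (0.0155%) by edgeR's test, and 72 of the 81 were adequately counted in aging valves. The count of 81 was 447 without young injured 3, 16 without young injured 2, 20 to 48 without 1 of the young shams and 48 and 53 without aging sham 2 and 3. In aging valves 67 of the 72 had the same sign, 46 of them with an unadjusted p under 0.05 (63.9%, against 6.52% of all adequately counted genes), and in 56 the injured and sham libraries did not overlap in that direction. The median log2 change of the 72 was 1.78 in young valves and 0.87 in aging valves. Split by the cell cycle lists, the 23 members had a median of 2.95 in young and 1.55 in aging valves and 20 had an unadjusted p under 0.05 in aging, while the other 49 had medians of 1.44 and 0.56 and 26 such genes. The value was smaller in aging valves in 71 of the 72, but the genes were chosen for high values in the young libraries, so the comparison of sizes carries no test. With the term for the number series the aging median of the 72 was 0.67. With the 72 genes kept as called in the full fit, the sign was shared by 65 to 67 when 1 aging library was left out. Leaving out a young library hardly touches the aging values, and the young calls were not redone for this count.

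Pycr1, a mitochondrial enzyme of proline synthesis, was the exception to the smaller values, at a log2 fold change of 1.19 in young and 1.30 in aging valves, where it was at 9.17, 9.28 and 7.68 CPM in the shams and 18.9 and 23.9 after injury. Timp1, an inhibitor of matrix metalloproteinases, stood at 66.5, 48.2 and 53.8 CPM in aging shams and at 127 and 140 in aging injured valves. Its log2 fold change was 1.25 ± 0.29 in aging (adjusted p = 0.327) and 2.77 in young valves (adjusted p = 0.0054). Dclk1, a microtubule-associated kinase, was at 40.3, 43.0 and 40.3 CPM against 53.9 and 50.8 in aging, a log2 difference of 0.35, and rose by 1.08 in young valves. Aspm, which acts at spindle poles, differed by 1.07 in aging and rose by 3.14 in young valves. The 5 of the 72 with the opposite sign were Lif, the cytokine leukemia inhibitory factor, at 1.87 in young and -0.04 in aging valves, Vcan, the proteoglycan versican, at 1.01 and -0.04, Lrp8, a lipoprotein receptor, at 1.92 and -0.27, Adamts8, a secreted protease, at 1.40 and -0.25, and Tubb2b, a tubulin, at 1.14 and -0.40. Of these, Adamts8 and Tubb2b did not overlap between injured and sham aging valves, in the lower direction. Among the 3 genes that fell in young valves, Coch and Cntfr had aging values of -0.48 and -0.04. These 7 were named after their values were seen.

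**Figure D3:**
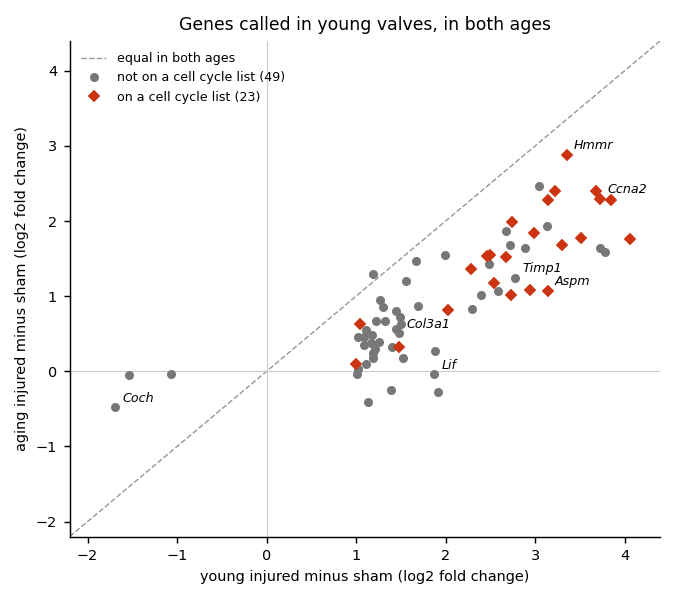
Log2 fold change after injury in aging valves (vertical) against young valves (horizontal) for the 72 genes called in young valves and adequately counted in aging, with 23 cell cycle genes as diamonds and the line of equal values dashed. The genes that rose in young valves lie below the line, other than Pycr1, with medians of 1.78 in young and 0.87 in aging valves over all 72.

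Matrix genes gave smaller differences. Of 30 collagen and elastic fibre genes, all adequately counted, 26 had a positive difference, 8 had an unadjusted p under 0.05 in the higher direction and 0 in the lower, and the median was 0.28. Col3a1, the fibrillar collagen III, was at 1818, 1918 and 1750 CPM in the shams and 2189 and 3013 in the injured valves (log2 fold change 0.51 ± 0.18, adjusted p = 0.457), and rose by 1.48 in young valves. Col1a1, collagen I, was at 1259, 1127 and 1433 CPM against 1423 and 3221, so only aging injured 2 lay above all shams. Fbln2, fibulin 2, was at 296, 240 and 299 CPM against 396 and 426, and Col6a3 at 419, 399 and 430 against 525 and 622. Without aging injured 2 the median of the list was 0.06, and without aging injured 1 it was 0.47. Among 32 matrix proteases, inhibitors and crosslinkers 28 were positive with a median of 0.27, and Timp1 and the membrane protease Mmp14, at 68.7, 77.1 and 91.3 CPM against 104 and 127, had an unadjusted p under 0.05. Of 21 genes for proteoglycans and hyaluronan 11 were positive, with a median of 0.07 that was -0.12 without aging injured 2 and 0.27 without aging sham 3; Cd44, the hyaluronan receptor, was at 104, 110 and 123 CPM against 173 and 153.

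Of 27 genes of mesenchymal transition and myofibroblasts 13 were positive and 14 negative, and the median of -0.02 lay near that of all genes. The members were mixed, with 5 without overlap in the higher and 6 in the lower direction. At an unadjusted p under 0.05 there were 2 higher and 0 lower. Cthrc1, a secreted protein made by activated fibroblasts, was the member with the smallest p, at 2.98, 2.04 and 4.39 CPM in the shams and 13.5 and 9.44 in the injured valves (log2 fold change 1.87 ± 0.45, adjusted p = 0.333). Tnc, tenascin C, a matrix protein of wounds, followed at 56.1, 37.6 and 53.2 CPM against 75.0 and 95.2. Both rose in young valves, by 2.67 and 1.44. Acta2, smooth muscle actin, was at 7658, 8491 and 7065 CPM against 7310 and 6584. Osteochondrogenic genes, those of cartilage and bone, had a median of 0.19 over 21 adequately counted members, with 0 at an unadjusted p under 0.05 and a median of -0.06 without aging injured 2.

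Markers of valve cells showed little difference in level. The 18 interstitial and fibroblast markers had a median of 0.08, 13 of them positive, and their summed level was 19210, 16940 and 20830 CPM in the shams and 18730 and 21320 in the injured valves. Mfap5, a microfibril protein, stood lower at 124, 127 and 136 CPM against 90.1 and 88.1 (log2 fold change -0.53 ± 0.13, adjusted p = 0.333). The 25 pan-endothelial markers, which label the layer that the wire was meant to damage, had a median of 0.02, 13 positive and 0 with an unadjusted p under 0.05 in either direction. Their summed level was 1415, 1786 and 2325 CPM in the shams and 1931 and 1834 in the injured valves, inside the sham range. Leaving out aging sham 1 gave a median of -0.15 and leaving out aging sham 3 gave 0.19. Young sham 1 was lower than the other young shams by a median of 0.44 over these markers, and with the term the aging median was 0.57. The 20 valve endothelial and shear-responsive genes had a median of -0.08, with 6 positive and 14 negative, 0 at an unadjusted p under 0.05, and 2 without overlap in the higher and 1 in the lower direction; Edn1, endothelin 1, was at 2.98, 4.29 and 4.67 CPM against 13.4 and 5.32, high in aging injured 1.

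Among leukocyte lists, most macrophage markers had higher values and lymphocyte markers were mixed. Of 27 adequately counted monocyte and macrophage markers 24 were positive, 2 had an unadjusted p under 0.05, 10 did not overlap in the higher direction and 0 in the lower, and the median was 0.35. Their summed level was 3525, 3471 and 4182 CPM in the shams and 3867 and 4931 in the injured valves, which overlap, and the median was 0.18 without aging sham 1. Cd68, a lysosomal protein of macrophages, was at 26.3, 40.2 and 42.1 CPM against 62.4 and 97.7 (log2 fold change 1.15 ± 0.32, adjusted p = 0.386), and Folr2, a folate receptor of resident macrophages, at 16.2, 24.8 and 19.0 against 37.6 and 29.3. Arg1, arginase 1, was not adequately counted, with 0, 12 and 4 counts in the shams and 66 and 93 in the injured libraries. It was named after its values were seen. The other markers not adequately counted did not share this. F10 went the other way, with 6, 14 and 5 counts against 0 and 1, and Cd5l was split, with 0, 32 and 19 against 0 and 150. Neutrophil markers were near the limit of detection, with 5 of 17 adequately counted and a summed level of 18.8 to 21.0 CPM in the shams and 30.9 and 30.1 in the injured valves. Members that were not adequately counted were mixed. The granule genes Camp and Mmp8 were at 0 counts in both injured libraries and at 0 to 5 counts in the shams, and Ngp was at 0 in all aging libraries but aging injured 2, with 33. Ltf was at 6, 7 and 3 counts in the shams against 0 and 20, Retnlg at 0, 3 and 1 against 15 and 0, and Trem1 at 13, 12 and 16 against 1 and 0. Both injured libraries held fewer genes at low counts, so these zeros are not read as a difference.

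Of 19 adequately counted cytokines and chemokines 15 were positive, with a median of 0.49, or 0.17 without aging injured 2 and 1.19 with the term. Ccl2, which attracts monocytes, was at 1.79, 4.57 and 3.08 CPM in the shams and 13.9 and 8.10 in the injured valves (log2 fold change 1.80 ± 0.54, adjusted p = 0.399). Ccl8, a related chemokine, was at 3.51, 7.53 and 5.13 CPM against 12.4 and 17.5, and Cxcl12, a chemokine of stromal cells, at 312, 356 and 302 against 415 and 453. In the coagulation and fibrinolysis list the median was 0.19 over 20 genes, and -0.10 without aging injured 1. Of these genes 13 were positive and 7 negative, with 6 without overlap in the higher and 1 in the lower direction. Procr, the receptor of protein C on endothelium, was at 7.90, 13.4 and 23.3 CPM against 74.7 and 41.3, and Plau, urokinase, at 7.29, 11.5 and 7.86 against 14.8 and 19.2. Log2 fold changes of the pair were 1.96 ± 0.58 and 0.94 ± 0.27, each with an adjusted p of 0.386.

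Interferon-stimulated genes depended on single mice. Of 40 genes 33 were positive with a median of 0.30, but only 2 did not overlap. Ifi27l2a was at 36.1, 73.1 and 44.9 CPM in the shams and 155 and 92.1 in the injured valves, and Oas2, an RNA sensor, at 11.3, 24.5 and 12.95 against 49.3 and 30.1. As a mean over the list, aging sham 2 (score 1.286) and aging injured 1 (1.132) stood above the other 3 aging libraries (-0.470 to 0.360), and the list median was 1.09 without aging sham 2 and -0.10 without aging injured 1. With the term the median was 0.65. Of 19 antigen presentation genes 13 were positive and 6 negative, with a median of 0.12 that ranged from -0.05 to 0.25 when 1 aging library was left out and was 0.48 with the term, and 4 did not overlap in the higher and 2 in the lower direction. B2m, the light chain of class I antigen presentation molecules, was at 567, 837 and 820 CPM against 1158 and 948. Of 24 lymphocyte markers only 7 were adequately counted, 5 of them positive with a median of 0.55, 1 without overlap in the higher and 2 in the lower direction, and the median ranged from -0.23 to 0.81 when 1 library was left out. The median was -0.15 over the 19 tested markers. Igkc, the immunoglobulin kappa chain of B cells, was at 42.6 CPM in aging injured 2, at 1.28 in aging injured 1 and at 1.82, 2.28 and 11.1 in the shams.

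**Figure D4:**
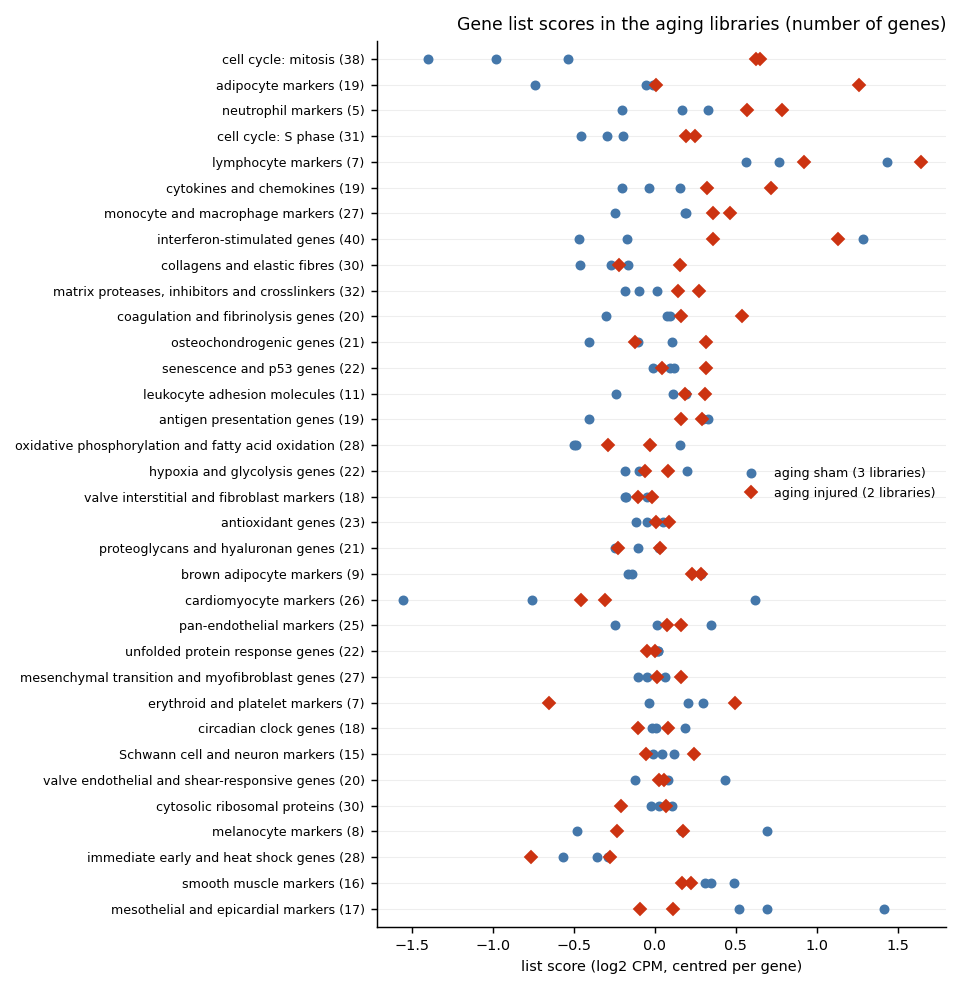
Score of each of the 34 gene lists in the 3 aging sham (circles) and 2 aging injured (diamonds) libraries, as the mean over adequately counted members of log2 CPM centred on each gene's mean over the 11 libraries, ordered by the median log2 difference. The mitosis scores are -1.397, -0.978 and -0.537 in the shams and 0.651 and 0.623 in the injured valves, and the mesothelial scores 0.518, 1.414 and 0.691 against -0.093 and 0.113.

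Mesothelial and epicardial markers, which label the outer cover of the heart, stood lowest of the 34 lists. All 17 were adequately counted, 16 had a negative difference, 6 had an unadjusted p under 0.05, all lower, 12 did not overlap in the lower direction and 0 in the higher, and the median was -1.02. Krt19, a keratin, was at 9.28, 15.8 and 10.2 CPM in the shams and 2.70 and 3.71 in the injured valves (log2 fold change -1.87 ± 0.53, adjusted p = 0.386). Wt1, a transcription factor of the epicardium, was at 6.13, 11.7 and 8.10 CPM against 3.59 and 2.63, and Cldn15, a claudin, at 6.99, 15.9 and 8.71 against 4.76 and 4.53. Upk1b, a uroplakin, was at 14.5, 20.7 and 14.4 CPM against 7.92 and 8.13. Sulf1 had the highest level and was at 376, 497 and 408 CPM against 464 and 423, so the summed level of the list, 617, 928 and 664 CPM against 620 and 600, was close between the groups. Aging sham 2 was the highest library in each of the named markers, and without it the median was -0.71. The same markers went the other way in young valves, where 16 of 17 were positive with a median of 0.59. Young sham 1 was higher than the other young shams by 0.65, and the aging median with the term was -1.61. Whether the tissue taken with the valve differed between mice was not tested.

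Adipocyte markers were highest in aging injured 2. Of 19 adequately counted markers 18 were positive, 7 had an unadjusted p under 0.05, 7 did not overlap in the higher and 1 in the lower direction, and the median was 0.82, or 1.37 with the term. Cfd, adipsin, was at 25.6, 45.6 and 10.2 CPM in the shams and 31.2 and 267 in the injured valves, and Car3, a carbonic anhydrase of fat cells, at 59.8, 81.6 and 27.5 against 68.0 and 405. In both genes only aging injured 2 lay above the shams, and without it the list median was 0.12. Retn, resistin, was at 2.15, 2.59 and 1.13 CPM against 3.69 and 12.9. The summed level of the list was 2098, 1775 and 1579 CPM in the shams and 1952 and 3358 in the injured valves, and 0 members were at 0 counts. Cardiomyocyte markers had a median of 0.02 over 26 genes, 15 positive and 0 without overlap, and of 0.64 without aging sham 1, -0.25 without aging sham 2 and 0.71 with the term (offset of young sham 1 -0.66); their summed level was 31120, 11240 and 13990 CPM in the shams and 20090 and 18050 in the injured valves. Smooth muscle markers had a median of -0.26 over 16 genes, 3 positive, and of -0.87 with the term (offset 0.78), with summed levels of 28200, 31810 and 26670 CPM against 26140 and 23120. Of 15 Schwann cell and neuron markers 6 were positive; Mbp, myelin basic protein, was at 18.9, 24.1 and 21.5 CPM in the shams and lower in both injured valves, with a log2 difference of -0.80.

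Outside the lists, Traf4, a signalling adaptor of the TRAF family, had the smallest p among genes that stood higher. It was at 6.57, 7.96 and 5.98 CPM in the shams and 15.9 and 16.2 in the injured valves, with a log2 fold change of 1.23 ± 0.19 and an adjusted p of 0.253. In young valves Traf4 was at 9.51, 8.84 and 9.66 CPM in the shams and 8.91, 8.10 and 8.83 after injury, and its value with the term was 1.19. Myo19, a myosin of mitochondria, was at 9.94, 10.6 and 9.55 CPM against 16.7 and 20.2 in aging valves. Med31, a subunit of the Mediator complex of RNA polymerase II, had the smallest p of all adequately counted genes and stood lower (chr11:72211724-72215592, minus strand). It was at 7.02, 8.85 and 6.16 CPM in the shams and 1.46 and 2.13 in the injured valves, a log2 fold change of -2.03 ± 0.30 with an adjusted p of 0.253. In the 6 young libraries Med31 was between 4.93 and 6.32 CPM, young sham 1 among them, and the aging value with the term was -1.81.

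The next genes by p among those that stood lower are on none of the lists described above. Dhodh, the mitochondrial enzyme of pyrimidine synthesis, was at 10.7, 9.62 and 9.66 CPM in the shams and 3.87 and 4.59 in the injured valves (log2 fold change -1.24 ± 0.21, adjusted p = 0.258). Mterf3, a regulator of mitochondrial transcription, was at 24.2, 22.7 and 22.9 CPM against 14.7 and 11.9, and Gtpbp10, a GTPase of the mitochondrial ribosome, at 14.5, 13.8 and 12.1 against 7.14 and 6.49. The shams were close to each other in these genes and both injured libraries lay below them. Malt1, the paracaspase of NF-kappa B signalling, was at 20.5, 20.6 and 20.6 CPM against 12.4 and 12.1, Ngdn, neuroguidin, at 19.1, 18.2 and 17.5 against 11.7 and 8.62, and Zfp931, a zinc finger gene, at 6.57, 6.42 and 6.09 against 1.95 and 0.848. Fxyd7, a modulator of the sodium pump, was at 4.75, 6.42 and 4.53 CPM against 1.63 and 0.906. Differences in young valves were between -0.14 for Mterf3 and 0.08 for Ngdn in these genes, other than Fxyd7 at -0.79. Between young sham 1 and the other young shams they were 0.15 for Dhodh, 0.06 for Mterf3 and 0.91 for Zfp931. Zfp931 belongs to a family of close copies, so its reads may not be assigned with certainty.

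**Figure D5:**
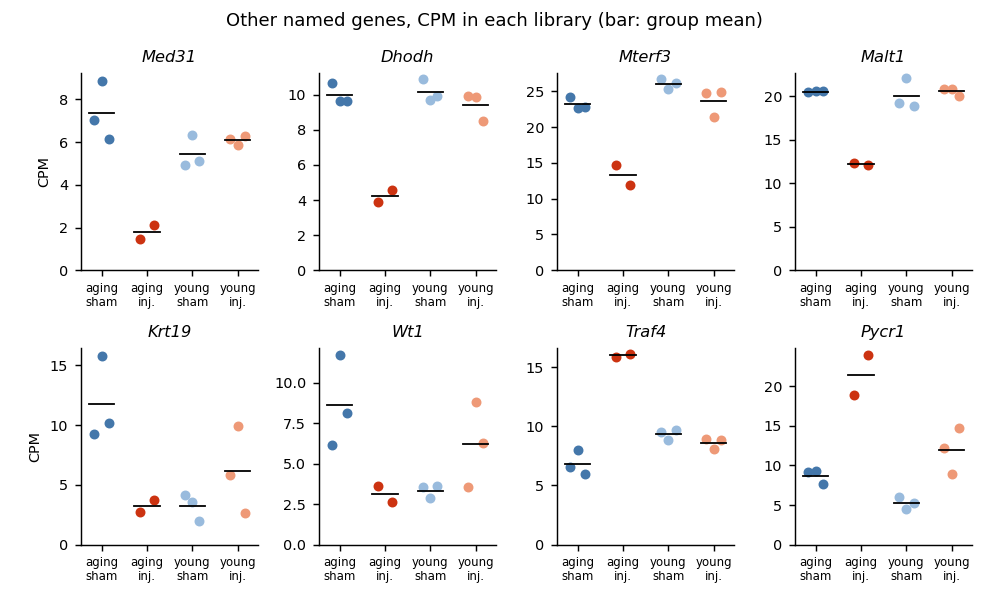
CPM of 8 named genes in each library (points), with the group mean (bar), in aging sham (3), aging injured (2), young sham (3) and young injured (3). Med31 is at 1.46 and 2.13 in aging injured valves and between 4.93 and 8.85 in the other 9 libraries.

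Lists of metabolism and stress had medians between -0.10 and 0.18, some of which moved with the term. The 28 genes of oxidative phosphorylation and fatty acid oxidation had a median of 0.10 with 21 positive in aging valves, against a median of -0.51 with 0 positive in young valves; without aging injured 1 the aging median was -0.06, and with the term it was 0.68 (offset of young sham 1 -0.60). Of these genes 0 had an unadjusted p under 0.05 in the aging comparison or in the interaction. Hypoxia and glycolysis genes had a median of 0.09 over 22 members, or 0.22 with the term, and antioxidant genes 0.08 over 23. Immediate early and heat shock genes had a median of -0.10 over 28 members, or -0.56 with the term (offset 0.63), with 12 positive and 16 negative, 1 without overlap in the higher and 3 in the lower direction; Egr2, a transcription factor induced within minutes of stimulation, was at 9.39, 7.50 and 7.43 CPM against 11.2 and 14.8. Unfolded protein response genes had a median of 0.00 over 22 members, against 0.48 in young valves, and 7 of them had an unadjusted interaction p under 0.05. In aging valves 11 of them were positive and 11 negative, with 4 without overlap in the higher and 0 in the lower direction. Of 22 senescence and p53 genes 14 were positive with a median of 0.18, or 0.03 without aging injured 2; Glb1, the lysosomal beta-galactosidase, was at 33.6, 37.5 and 36.7 CPM against 46.1 and 56.5, and Cdkn2a, which encodes p16, at 1.88, 2.01 and 3.08 against 3.94 and 5.17. Of 30 cytosolic ribosomal protein genes 21 were negative with a median of -0.09, and without aging injured 2 the median was 0.01. With the term, medians of other lists described above were 0.42 for coagulation and fibrinolysis, 0.15 for matrix proteases, inhibitors and crosslinkers, -0.14 for proteoglycans and hyaluronan, -0.11 for mesenchymal transition, -0.01 for osteochondrogenic genes, 0.08 for senescence and p53 genes and -0.20 for ribosomal proteins.

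The difference between ages in the response to injury was tested by the injury by age interaction. No gene was called in edgeR's test (0% of 19366); of the adequately counted genes, 909 were at an unadjusted p under 0.05 (6.06%). By DESeq2 174 of all genes tested were called in the interaction, and by limma voom 0. Of the 174, 24 had a higher and 150 a lower value in aging than in young valves. They were not restricted to adequately counted genes. Med31 had the smallest interaction p among adequately counted genes (adjusted p = 0.446), followed by Ccz1, a component of late endosomes, at 29.5, 27.3 and 26.4 CPM in aging shams and 19.3 and 18.3 in aging injured valves. Traf4 came next, and then Uckl1os, an antisense transcript whose reads cannot be told apart from those of its partner without strand, at 0.829, 1.23 and 0.354 CPM in aging shams and 3.23 and 6.23 in aging injured valves. All 4 had an interaction adjusted p of 0.446.

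Genes that were tested but not adequately counted, 4359 in number, had under 10 counts in at least 1 aging library. Such genes entered the test through the group where they were high, so the direction of their differences depends on that choice. Their counts and adjusted p-values are therefore descriptions. A total of 84 genes were at 0 counts in both injured libraries and at 10 or more in each sham, 37 of them protein coding, and 0 genes showed the opposite. Young sham 1 was also at 0 in 30 of the 84, and 7 were at 0 in young sham 2 or 3. Zfp442 had 74, 71 and 65 counts in the shams and 0 and 1 in the injured libraries (adjusted p = 0.148), with 61, 65 and 57 in the young shams and 94, 38 and 72 in young injured valves. Hmga2, a chromatin protein of embryonic and proliferating cells, went the other way, with 2, 0 and 1 counts in aging shams and 97 and 33 after injury (adjusted p = 0.289). In young valves Hmga2 had 0 counts in each sham and 16, 45 and 61 after injury (adjusted p = 0.0759, with the same limit). Klhl10 had 5, 6 and 4 counts in aging shams and 46 and 43 after injury, and 5 to 16 counts in the 6 young libraries.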

How the data were processed

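Whole aortic valves of wild type mice were sequenced, 1 mouse per library, with 150 nt paired-end reads from 200 ng of RNA, per the labels' protocols. The authors deposited raw read counts for 46983 genes. Per the submitters' processing notes, the genome build was mm10 and the aligner TopHat2 2.1.0. Which program counted the reads, with what annotation and whether by strand, was not given in the sources used here; overlapping genes and close copies are therefore uncertain. Of the columns, 1 matched no sample label and was not used. A normalized table (RPKM) was not used here.

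Groups were taken from the sample labels. All 11 libraries entered 1 fit with 4 group means in edgeR 4.0.16 (R 4.3.3): filterByExpr with a minimum count of 10, TMM scaling, the quasi-likelihood F test and Benjamini-Hochberg adjustment over 19366 genes, and calls needed an adjusted p below 0.1 together with more than a 2-fold change, as in the series' design text. The common biological coefficient of variation was 0.377. Log2 CPM used a prior count of 2, the SE was obtained from the log2 fold change and its F statistic, and a list score is the mean over genes of log2 CPM centred per gene. With 2 against 3 libraries the 10 splits allow no exact permutation p below 0.1, so values of single lists carry no p. Alternatives used DESeq2 1.42.0, limma 3.58.1 (voom), other scalings and filters, left-out libraries, a term for the 3 libraries with the highest label numbers, and, chosen after seeing the data, only libraries with Xist counts. Fits were tested on simulated data.

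The members, the 34 lists (790 symbols, 789 matched, 2 by an older name) and the tests were chosen with earlier results of these data known. Named genes were the 8 with the smallest p in each direction, clone names left out, up to 3 per list and its member with the highest level, 6 called in young valves, the 4 with the smallest interaction p, and Myh6, Xist and 4 genes not adequately counted. Outside that rule, Hmmr, Cdca3, Nusap1, Ccnb2, Smc4, Rrm2, Upk1b, Mcm3, Mcm4, Mcm5, Mcm10, Camp, Mmp8, Ngp, Ltf, Retnlg, Trem1, Arg1, F10, Cd5l, Lif, Vcan, Lrp8, Adamts8, Tubb2b, Coch and Cntfr were named after their values were seen. Of the genes under the rule, 1 is not reported here. Libraries of a group differed by a chi-square of 25.27 to 291 per degree of freedom, so none was a repeat.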

Additional observations from a re-analysis of the deposited data

Results flagged for a closer look

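Among genes chosen by the naming rule, genes called in young valves and list scores, 7 genes and 1 list were picked out because every injured library moved one way from the shams in aging valves and the opposite way in young valves. Over all 15007 adequately counted genes the groups lay apart in this way in 128 that were lower in aging and higher in young valves and in 70 that were the reverse. The difference between ages was not called for any of the 7 genes in edgeR's interaction test. Cldn15, a claudin of mesothelium, was at 6.99, 15.9 and 8.71 CPM in aging shams and 4.76 and 4.53 after injury (log2 fold change -1.18), and at 2.15, 2.67 and 2.72 in young shams and 2.97, 6.93 and 4.43 after injury (0.93); the adjusted interaction p was 0.450. Fap, a protease of activated fibroblasts, stood lower in aging (-0.49) and higher in young valves (0.70), with an adjusted interaction p of 0.446. Ccz1 stood lower in aging (-0.56) and higher in young valves (0.40), with 0.446. Ncmap, a protein of myelinating Schwann cells, stood higher in aging (0.90) and lower in young valves (-1.43), with 0.526. Uckl1os, an antisense transcript, stood higher in aging (2.54) and lower in young valves (-1.34), with 0.446. Adamts8, a secreted protease, stood lower in aging (-0.25) and rose in young valves (1.40), and Tubb2b, a tubulin, likewise (-0.40 and 1.14), both with 0.446. The score of the unfolded protein response genes was 0.006 to 0.021 in aging shams and 0.001 and -0.046 in aging injured valves, a difference of -0.04. Its members did not share that direction in aging valves. Of them 11 were positive and 11 negative, and 4 did not overlap in the higher and 0 in the lower direction. In young valves the score was -0.308 to 0.004 in shams and 0.071 to 0.335 after injury. The difference between ages in the score was not tested.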

How the results depend on the processing

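Under 25 alternatives 68 named genes gave 1692 values, of which 1631 kept their sign and stayed uncalled, 49 passed the threshold with the same sign (29 with DESeq2, 19 without aging injured 1) and 12 in 6 genes changed sign. Alternatives such as leaving out a young library hardly change the aging values, so the 1692 values are not separate checks. With the term for the highest label numbers the values were -0.17 for Mcm6, -0.10 for Anln, -0.43 for Vim and -0.16 for Sulf1. Leaving out 1 library gave ranges of -0.036 to 0.44 for Anln, -1.98 to 3.42 for Igkc, -0.030 to 0.18 for Sulf1 and -0.029 to 0.73 for Myh6. Libraries with Xist counts gave -0.033 for Sulf1. Genes called in aging valves numbered 0 in edgeR, 329 with DESeq2 (109 adequately counted), 3 with the term (all 3 adequately counted), 1 with no filter and 0 to 261 without 1 library (0 to 154 adequately counted). Adequately counted genes at an unadjusted p under 0.05, 978, were 495 with voom quality weights, 1526 with the term, 534 with Xist libraries and 639 to 2613 without 1 library. DESeq2 called 174 genes in the interaction, over all genes tested. Young calls, 81, were 268 with DESeq2, 376 with quality weights, 43 with the term, 0 with Xist libraries and 16 to 447 without 1 library. The cause was not tested. Replicate numbers were not treated as pairs in the main fit, and whether they pair mice is not known. Same-numbered libraries had correlations of -0.230 to 0.383 over 15 pairs (-0.048 and -0.088 within the aging valves). With a replicate block aging calls were 0 and young calls 55, Vim was at -0.040 and Sulf1 at -0.044. Of 34 list medians, 13 kept their sign throughout and 21 did not. With 2 injured libraries and counts below 10 left out, smaller differences and low genes were not detectable at this depth.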

Other observations

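Zinc finger genes with a symbol of Zfp and a number, many of them KRAB repressors, were looked at after Zfp931 was seen among the lowest genes. Of 328 adequately counted members, 32 were lower (9.76%, against 3.37% of all adequately counted genes) and 5 higher (1.52% against 3.15%) at an unadjusted p under 0.05. In 82 the groups did not overlap in the lower (25.0% against 13.2%) and in 25 in the higher direction (7.62% against 12.6%). Since the family was picked from these values, the shares are a description. Their median CPM was 12.3, 12.4 and 12.2 in the shams and 11.5 and 9.95 in the injured valves, and the median log2 difference was -0.09. It was -0.04 in young valves and -0.04 between young sham 1 and the other young shams. Zfp951 (log2 difference -2.17) had an adjusted p of 0.299, and Zfp58 (log2 difference -1.24), Zfp758 (-1.08), Zfp942 (-1.11) and Zfp81 (-0.82) were lower at an adjusted p of 0.327 to 0.362. Many of these genes are close copies of each other.

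With a term for the 3 libraries of the highest label numbers, 3 genes were called as higher in aging injured valves, Naip5, Csmd1 and A630001G21Rik. Their log2 differences with the term were 10.36, 10.36 and 10.38. The term is estimated only from young sham 1 against the other young shams, so these values rest on the 0 counts of that library. Naip5, an innate immune sensor, had 117, 177 and 103 counts in aging shams and 187 and 134 after injury, and 0 counts in young sham 1 against 110 and 117 in the other young shams. Csmd1 and A630001G21Rik were likewise at 0 in young sham 1 and at 52 or more counts in every other library. Csmd1 had 99, 115 and 66 counts in aging shams and 157 and 125 after injury. A630001G21Rik had 127, 153 and 118 against 92 and 221. Counts of the aging groups overlapped in Naip5 and A630001G21Rik.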
